A study of Mus musculus with 9 samples.

Results

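Fast glycolytic fibre genes were followed through 9 arrays of mouse tibialis anterior, a muscle of the front of the lower leg that consists mainly of fast fibres. The genes were the fast myosin heavy chains Myh1 and Myh4, the Z-disc protein Actn3, the regulatory light chain Mylpf, the fast troponins Tnnt3, Tnni2 and Tnnc2, and the calcium proteins Pvalb, Atp2a1 and Casq1. They were taken as a named list of 10 genes out of the 19505 named on the array, and each was read by 1 probe set. The series asks how MCUb bears on oxidative phosphorylation, and compares muscle lacking MCU (MCU-/-/MCUb+/+), muscle lacking MCUb (MCU+/+/MCUb-/-) and control muscle (MCU+/+/MCUb+/+), with 3 arrays for each genotype. All mice were of the C57/BL6 strain and 2 months old, and received no treatment that the labels name. Where in the body the alleles were deleted, the sex and litter of the mice, and whether each array stands for a separate animal are not given in the sources used here. The spread that the p-values below are set against is thus one of samples, and some of it may be technical.

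MCU forms the pore through which calcium enters mitochondria, and MCUb is a related subunit of the same complex. Mouse limb fibres are sorted by their myosin heavy chain into slow type I, fast oxidative IIa, and fast IIx and IIb fibres, of which the last ones rely most on glycolysis, shorten fastest and tire soonest. Fast fibres pair these myosins with fast forms of the thin-filament and Z-disc proteins, and with a calcium system that releases and clears calcium quickly. In an extract of whole muscle, fewer fibres of a type and less RNA per fibre cannot be told apart.

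Markers of muscle were present: all 8 structural genes shared by all fibres, among them Acta1 and Ttn, lay above background on every array, and Mcu read 10.38 to 10.96 (log2) in control and 6.80 to 7.06 in the MCU knockout. That is a log2 change of -3.65 (SE 0.20, adjusted p = 3.47e-05 in limma). Mcub was not analysed here. Control replicate 3 stood apart from the rest: on the first principal component it lay at -70.8 and the other 8 arrays between -20.3 and 21.9. The Y-linked genes Uty and Kdm5d averaged 7.24 to 7.80 on MCU knockout replicates 2 and 3 and MCUb knockout replicate 1, and 3.01 to 3.89 on the other 6 arrays.

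None of the 10 fast fibre genes passed the threshold in any comparison of genotypes. All were among the brightest features of this muscle, between the 1st and the 79th of 22206 probe sets by mean signal, a rank that also depends on the probes of each set, and all were above background on every array. In the MCU knockout 9 of the 10 lay above control and Myh4 below, with a median log2 change of 0.16 against -0.018 over all probe sets. In the MCUb knockout 8 lay above control, with a median of 0.15 against -0.029. Control replicate 3 had the lowest value of all 9 arrays for every one of the 10 genes, and without it the medians were 0.071 and 0.030.

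**Figure D1:**
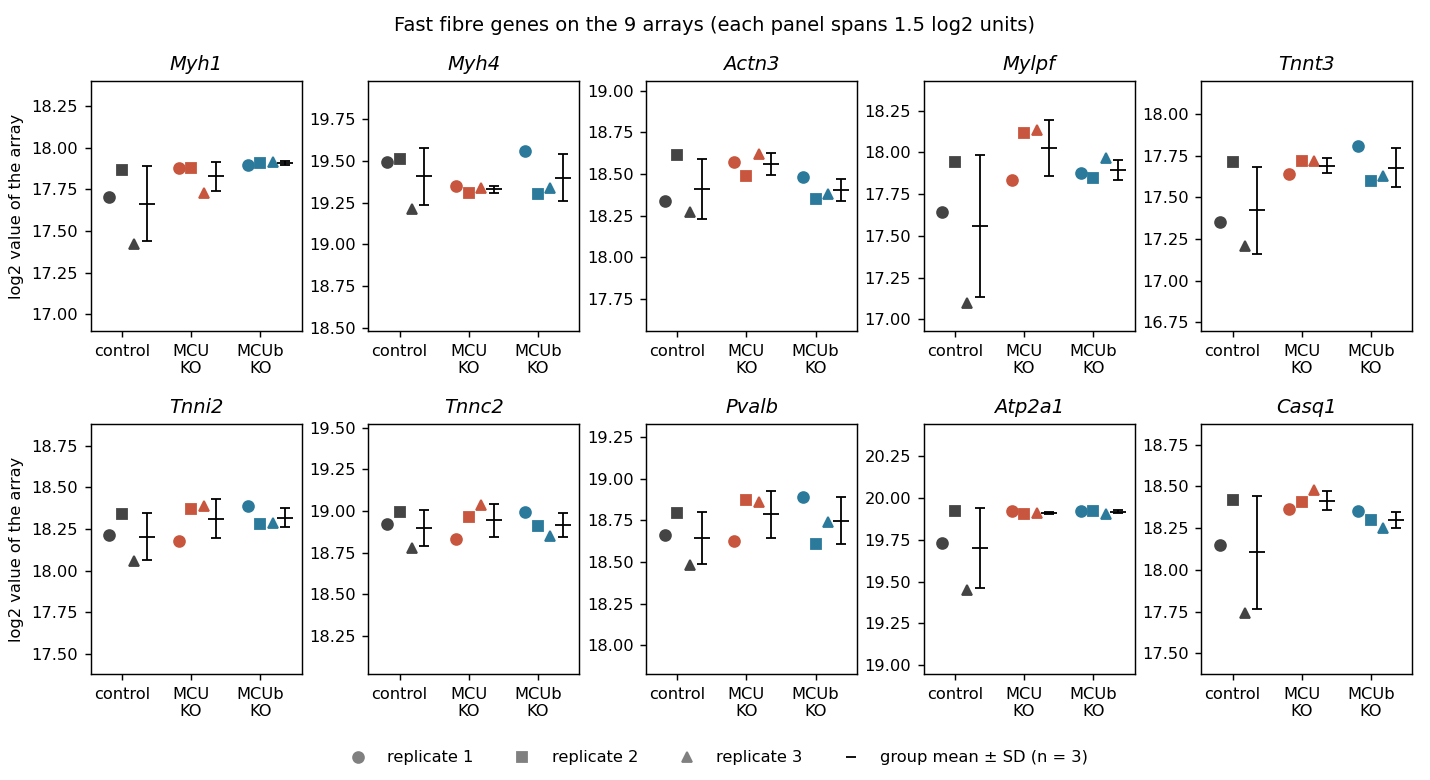
Log2 value of each fast fibre gene (vertical axis, each panel spanning the same width) on the 9 arrays by genotype, with circles, squares and triangles for replicates 1, 2 and 3 and a bar for the group mean and SD (n = 3). The control triangle is the lowest point of every panel, from 17.10 for Mylpf to 19.45 for Atp2a1.

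Myh1 and Myh4 encode the IIx and IIb myosin heavy chains, the motors of the fastest fibres, and lie side by side on chromosome 11 with Myh2, the IIa myosin, before them and Myh8, the perinatal myosin, after them. The 250 bases before their starts are shown because each holds a match to MEF2, the site of the MEF2 factors of muscle, and the match has the same letters in both. RefSeq sequences on GRCm38.p6 are given 5′ to 3′ on the coding strand, at chr11:67199852-67200101, plus strand, for Myh1 and at chr11:67237562-67237811, plus strand, for Myh4. Capitals mark matches on either strand to MEF2 or to the E-box CANNTG of the MyoD family.
Myh1: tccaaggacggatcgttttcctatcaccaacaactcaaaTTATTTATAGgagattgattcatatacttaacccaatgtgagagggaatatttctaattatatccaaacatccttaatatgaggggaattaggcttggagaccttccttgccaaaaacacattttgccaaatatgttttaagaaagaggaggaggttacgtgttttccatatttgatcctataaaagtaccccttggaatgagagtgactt
Myh4: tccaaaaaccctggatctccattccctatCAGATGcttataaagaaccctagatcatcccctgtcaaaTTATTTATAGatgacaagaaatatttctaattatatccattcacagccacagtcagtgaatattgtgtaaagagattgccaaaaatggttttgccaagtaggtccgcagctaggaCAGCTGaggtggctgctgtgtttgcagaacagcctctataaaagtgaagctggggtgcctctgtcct
The MEF2 match TTATTTATAG begins at position -211 of Myh1 and -182 of Myh4, counted back from the start at -1. Promoters were found for 7 of the 10 genes, in 8 windows because Pvalb has 2 starts, and not for Actn3, Tnnt3 and Tnni2. Of the 8 windows 3 held a MEF2 match, where 2.92% of 32851 promoter windows of this length did. E-boxes stood in 6 of the 8, where 66.2% of all windows hold one. A further motif searched for, MEF3 (TCAGGTT), stood in 0 of the 8, where 3.49% of all windows hold it. These matches describe letters, and no binding was measured.

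Myh1 stood at 17.71, 17.86 and 17.42 on control replicates 1, 2 and 3, at 17.88, 17.88 and 17.73 on the MCU knockout arrays, and at 17.90, 17.91 and 17.92 on the MCUb knockout arrays. The 3 MCUb knockout arrays were the highest of all and did not overlap with control or with the MCU knockout, and the MCU knockout overlapped with control. The log2 change was 0.16 (SE 0.17, adjusted p = 0.772 in limma) in the MCU knockout and 0.24 (SE 0.17, adjusted p = 0.722) in the MCUb knockout. For the latter an exact two-sided permutation test returned p = 0.1, and no smaller p is possible with groups of 3. Groups did not overlap in 12.8% of all probe sets in that comparison. Without control replicate 3 the changes were 0.044 and 0.12.

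Myh4 was the one gene of the 10 with an estimate below control in the MCU knockout. Its values were 19.50, 19.51 and 19.21 in control, 19.35, 19.31 and 19.34 in the MCU knockout and 19.56, 19.30 and 19.34 in the MCUb knockout. The MCU knockout arrays fell inside the control range, between control replicate 3 and the other controls, and spread little (SD 0.021 against 0.17). The log2 change was -0.075 (95% interval -0.45 to 0.30, adjusted p = 0.905) in the MCU knockout and -0.0078 (-0.38 to 0.37, adjusted p = 0.994) in the MCUb knockout. Without control replicate 3 it was -0.17 and -0.10, still not past the threshold.

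The myosin genes of this cluster are close copies of one another, so a probe set may read more than its own transcript. The Myh8 probe set, for a myosin of perinatal muscle, had a level of 19.20 on control replicate 3 and of 19.63 to 19.84 on the other 8 arrays of these adult muscles. Like the fast genes, it was lowest on control replicate 3. Whether its probes also bind Myh1 or Myh4 RNA was not tested, and the split of signal between these genes is uncertain. Myh2 followed another course, given below.

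Actn3 encodes the alpha-actinin that anchors thin filaments at the Z-disc of fast fibres. It read 18.34, 18.61 and 18.27 in control, 18.57, 18.49 and 18.62 in the MCU knockout and 18.48, 18.35 and 18.38 in the MCUb knockout. Control replicate 2 lay just under the highest MCU knockout array, and the other controls were the lowest of the 9. The change was 0.15 (SE 0.17, adjusted p = 0.786) in the MCU knockout and -0.0048 (SE 0.17, adjusted p = 0.996) in the MCUb knockout, or 0.083 and -0.0725 without control replicate 3.

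Mylpf, the regulatory light chain of fast myosin, showed the widest spread of the 10 genes. The 250 bases before its start (chr7:127211358-127211607, plus strand) hold 1 E-box, CAGCTG, beginning at position -51, and are shown because this gene had the largest estimate.
Mylpf: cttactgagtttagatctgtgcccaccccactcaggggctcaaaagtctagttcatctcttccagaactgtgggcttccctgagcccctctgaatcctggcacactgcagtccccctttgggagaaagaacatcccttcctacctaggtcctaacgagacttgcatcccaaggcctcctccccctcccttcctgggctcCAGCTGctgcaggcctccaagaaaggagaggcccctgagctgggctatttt
Its values ran 17.64, 17.94 and 17.10 in control, 17.83, 18.11 and 18.13 on the MCU knockout arrays and 17.88, 17.85 and 17.96 on the MCUb knockout arrays. Control replicate 3 lay 0.54 below the next array, and control replicate 2 lay above 1 MCU knockout and 2 MCUb knockout arrays. The mean was 17.56 ± 0.43 (SD, n = 3) in control and 18.03 ± 0.17 in the MCU knockout, and the log2 change of 0.47 (95% interval -0.021 to 0.95) was not past the threshold (adjusted p = 0.511). It was 0.34 (-0.15 to 0.82, adjusted p = 0.694) in the MCUb knockout. The changes were 0.24 and 0.11 without control replicate 3. Without control replicate 2 they were 0.66 (adjusted p = 0.190) and 0.53 (adjusted p = 0.294).

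The troponin complex makes the thin filament answer to calcium: Tnnc2 binds calcium, Tnni2 inhibits the filament and Tnnt3 ties the complex to tropomyosin. Tnnt3 was measured at 17.35, 17.71 and 17.21 in control, 17.64, 17.72 and 17.72 in the MCU knockout, and 17.81, 17.60 and 17.63 in the MCUb knockout. Control replicates 1 and 3 lay below all 6 knockout arrays, and control replicate 2 lay among them. The log2 change was 0.27 (SE 0.18, adjusted p = 0.644) in the MCU knockout and 0.26 (SE 0.18, adjusted p = 0.722) in the MCUb knockout, or 0.16 and 0.15 without control replicate 3.

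Tnni2 and Tnnc2 differed less. Tnni2 had values of 18.21, 18.34 and 18.06 in control, 18.18, 18.37 and 18.39 in the MCU knockout and 18.38, 18.28 and 18.29 in the MCUb knockout, with changes of 0.11 in each (SE 0.17, adjusted p of 0.852 and 0.871). Tnnc2 read 18.92, 18.99 and 18.78, then 18.83, 18.96 and 19.03, then 18.99, 18.91 and 18.85 in the same order, with changes of 0.044 and 0.019 (SE 0.16, adjusted p of 0.95 and 0.984). The changes without control replicate 3 were 0.036 and 0.041 for Tnni2 and -0.015 and -0.040 for Tnnc2. All 3 genotypes overlapped for both genes, and Tnnc2 had the narrowest range of the 10, 0.25 over the 9 arrays.

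The calcium proteins set the pace of contraction and relaxation. Atp2a1 encodes SERCA1, the pump that returns calcium to the sarcoplasmic reticulum of fast fibres. Its values were 19.73, 19.92 and 19.45 in control, 19.92, 19.90 and 19.91 in the MCU knockout, and 19.92, 19.93 and 19.91 in the MCUb knockout. The 6 knockout arrays and control replicate 2 lay between 19.90 and 19.93, and only control replicates 1 and 3 were lower. The change was 0.21 in the MCU knockout (95% interval -0.17 to 0.59, adjusted p = 0.705) and 0.22 in the MCUb knockout (-0.17 to 0.60, adjusted p = 0.750). Without control replicate 3 these were 0.084 and 0.091, and after quantile normalization 0.032 in both. That scaling sets values by rank, and gave Atp2a1 19.84 on every array except control replicate 3, at 19.75. Its 0.032 thus says little of the gene. The table carries no flag for saturated spots, and whether a ceiling holds this gene level on 7 arrays was not tested.

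Casq1 encodes the fast form of calsequestrin, which stores calcium inside the reticulum, and Pvalb encodes parvalbumin, which buffers calcium in the cytoplasm of fast fibres and so hastens relaxation. Their promoters (chr1:172219896-172220145, minus strand, and for the first of the Pvalb starts in the table chr15:78206401-78206650, minus strand) are shown because Casq1 had the second largest estimate in the MCU knockout and Pvalb holds the remaining MEF2 match, TTATTAATAG.
Casq1: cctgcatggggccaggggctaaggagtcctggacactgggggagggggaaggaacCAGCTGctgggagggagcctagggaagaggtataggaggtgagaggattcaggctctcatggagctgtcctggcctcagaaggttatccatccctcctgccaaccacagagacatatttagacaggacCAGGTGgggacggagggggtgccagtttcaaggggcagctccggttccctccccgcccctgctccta
Pvalb: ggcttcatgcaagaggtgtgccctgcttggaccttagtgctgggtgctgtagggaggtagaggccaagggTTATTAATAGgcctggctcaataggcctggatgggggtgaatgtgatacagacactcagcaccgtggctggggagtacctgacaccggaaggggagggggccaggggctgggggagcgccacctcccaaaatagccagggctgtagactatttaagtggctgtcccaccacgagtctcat
Casq1 read 18.15, 18.42 and 17.74 in control, 18.36, 18.41 and 18.48 on the MCU knockout arrays and 18.35, 18.30 and 18.25 on the MCUb knockout arrays. Control replicate 3 was 0.41 below the next array, control replicate 2 lay among the MCU knockout arrays, and each MCU knockout array was above each MCUb knockout array. The log2 change was 0.31 (95% interval -0.12 to 0.74, adjusted p = 0.612) in the MCU knockout, or 1.24-fold, and 0.19 (-0.23 to 0.62, adjusted p = 0.799) in the MCUb knockout. They were 0.13 and 0.015 without control replicate 3.

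Pvalb stood at 18.66, 18.79 and 18.48 in control, 18.62, 18.87 and 18.86 in the MCU knockout and 18.89, 18.61 and 18.74 in the MCUb knockout. Genotypes overlapped, with changes of 0.14 (SE 0.18, adjusted p = 0.813) and 0.10 (SE 0.18, adjusted p = 0.897), or 0.057 and 0.018 without control replicate 3. Its 3 highest arrays were those with high Uty and Kdm5d: they lay between 18.86 and 18.89 and the other 6 between 18.48 and 18.79.

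**Figure D2:**
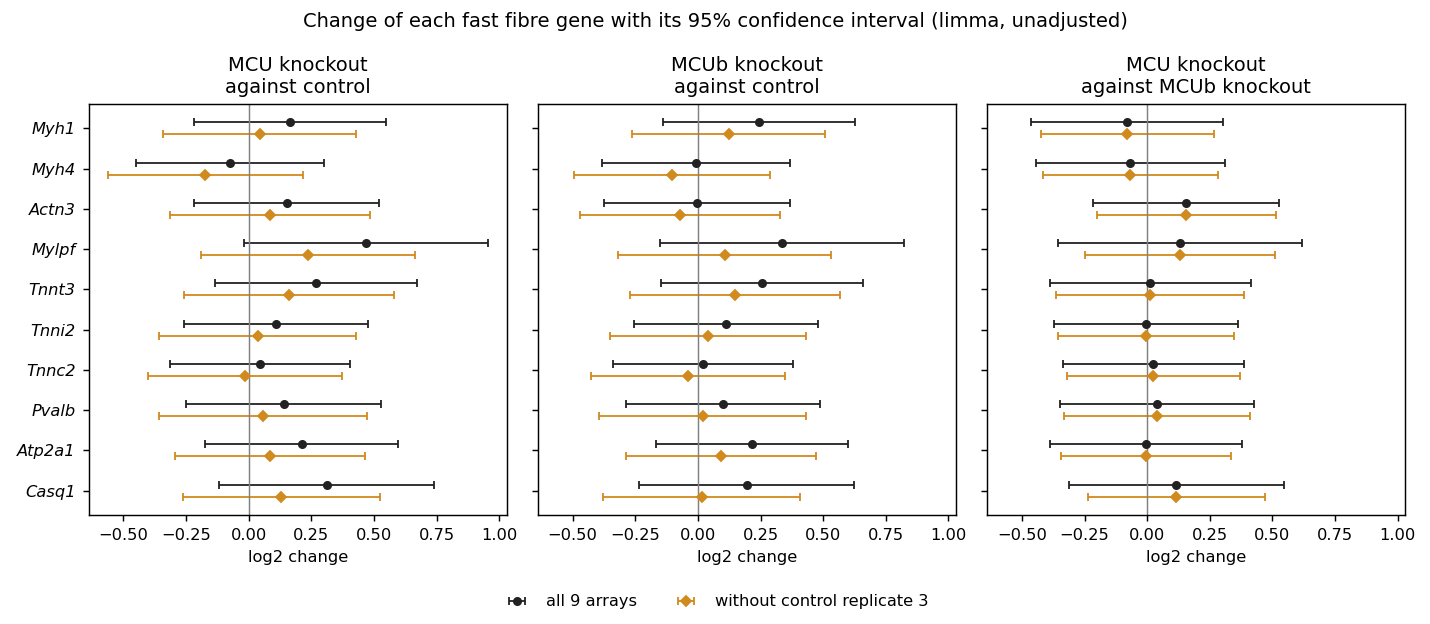
Log2 change of each fast fibre gene (horizontal axis) with its 95% confidence interval from limma, unadjusted, in the 3 comparisons, over all 9 arrays (circles) and without control replicate 3 (diamonds). Every interval includes 0, and in both comparisons with control the diamonds lie to the left of the circles.

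By count, 0 of the 10 genes passed at an adjusted p under 0.05 in limma in the MCU knockout, where 0.14% of all probe sets did, and 0 had an unadjusted p under 0.05, where 10.1% did. The groups did not overlap for 0 of the 10, against 13.4% of probe sets. In the MCUb knockout 0 passed (0.0225% of probe sets), 0 had an unadjusted p under 0.05 (8.11%), and the groups did not overlap for 1, Myh1 (12.8%). The share of all probe sets above control was 47.6% in the MCU knockout and 46.0% in the MCUb knockout, against 9 and 8 of the 10 genes. Without control replicate 3 these were 8 of 10 against 50.4% in the MCU knockout and 7 of 10 against 48.3% in the MCUb knockout, with 0 past the threshold in limma in either, against 0.126% and 0.027% of probe sets. Both comparisons use the same 3 controls, so these counts are not independent of each other. The 95% intervals of the 10 genes ran from 1.37-fold lower to 1.94-fold higher in the MCU knockout and from 1.30-fold lower to 1.77-fold higher in the MCUb knockout.

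Between the knockouts, which share no array, 0 of the 10 genes passed (0.158% of probe sets did) and 0 had an unadjusted p under 0.05 (5.7%). The log2 changes, MCU knockout over MCUb knockout, lay between -0.079 for Myh1 and 0.16 for Actn3, with a median of 0.019 and with 6 of 10 above 0 against 52.3% of probe sets, and the intervals between -0.46 and 0.62. Groups did not overlap for 3 of the 10, against 12.8% of probe sets: Actn3 and Casq1 were higher in the MCU knockout and Myh1 lower. Their adjusted p in limma was 0.9998 in each case, and an exact permutation test gave its smallest p, 0.1. The fit takes 1 estimate of spread from all 3 groups, so the control arrays also enter the SE of this comparison. For Casq1 that SE was 0.19, and 0.16 without control replicate 3 (adjusted p = 0.9515 in limma).

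All 10 genes, as deposited, were low on control replicate 3. Averaged over the genes, the deviation from each gene's own mean was -0.34 on control replicate 3 and -0.089 on control replicate 1, but 0.10 on control replicate 2 and between -0.0072 and 0.11 on the knockout arrays. Control replicate 3 was the lowest array for 10 of 10 genes, against 17.9% of all probe sets and 21.9% of the 8684 above background on every array. The control SD was the largest of the 3 groups for 10 of 10, against 48.0% of probe sets, with a median of 0.20 in control, 0.077 in the MCU knockout and 0.064 in the MCUb knockout.

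Other bright genes had part of this. Among the 54 further genes with a mean at least that of Tnnt3, the dimmest of the 10, control replicate 3 was lowest for 29, and their median deviation there was -0.17. Only the 10 genes were left out of these 54, so other genes of fast fibres are in them, among them Myl1, Tpm1, Pygm, Aldoa and Pgam2. Myh8 and the structural genes Acta1 and Neb are also in them. Of those named here, all but Pgam2 were lowest on control replicate 3. The 8 structural genes of all fibres were at a mean of 17.15 on that array and between 17.21 and 17.30 on the others. This count was also taken under other scalings, as a check added after seeing the data. With each array centred on these structural genes, control replicate 3 was lowest for 5 of the 10 fast genes (Myh1, Mylpf, Tnnt3, Atp2a1 and Casq1), and with array medians for 10. After quantile normalization it was lowest for those 5 and shared the lowest value for Pvalb, while for Myh4 it became the highest of the 9 arrays, at 19.65 against 19.17 to 19.49. The same array was the highest for 5 of 6 adipocyte markers, against 22.7% of all probe sets, and of these markers Plin1, Cidec and Lep were not above background on any array. Adipoq, a hormone made by fat cells, was at 6.75 there and at 4.50 to 5.33 elsewhere. Both Adipoq and Retn were above background on control replicate 3 alone. Fabp4, above background on every array, was at 17.34 there and at 16.73 to 17.30 elsewhere. The log2 of the summed adipocyte markers ran from 17.29 to 17.34 in control, 16.99 to 17.29 in the MCU knockout and 16.73 to 17.02 in the MCUb knockout, led by Fabp4, which capillary endothelium also makes. The part of these in the low fast genes was not tested.

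**Figure D3:**
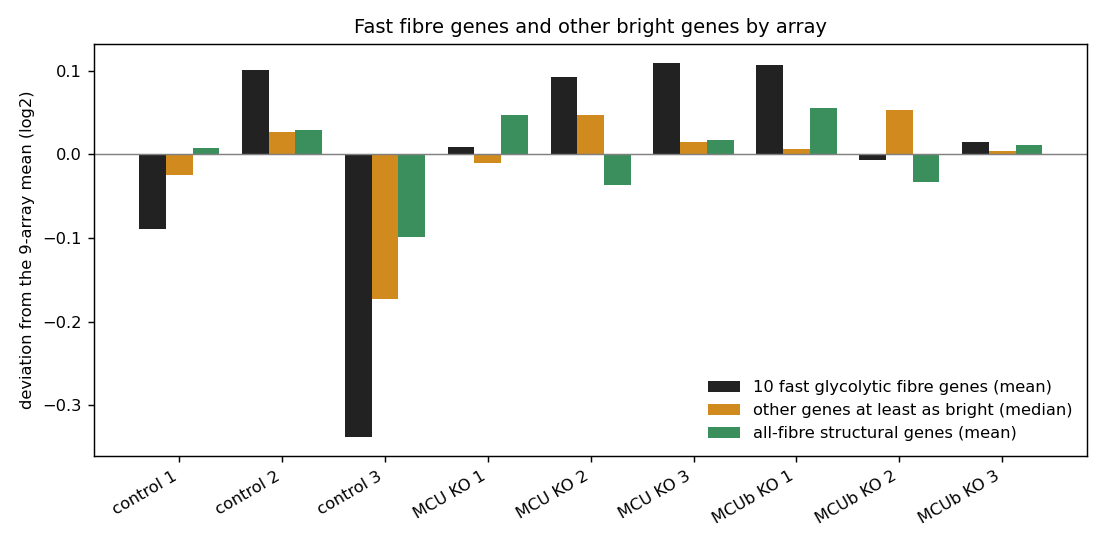
Deviation from the mean over 9 arrays (vertical axis, log2) on each array for the 10 fast fibre genes, for 54 other genes at least as bright, and for 8 structural genes of all fibres. The last 2 sets overlap, since Acta1 and Neb are in both, and the 54 hold further fast fibre genes. Control replicate 3 lies lowest for all 3 sets, at -0.34 for the fast genes and -0.17 for the other bright genes.

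The 10 genes varied together more closely with control replicate 3 than without it. Over the 9 arrays the 45 pairs of genes had a median Pearson r of 0.75 (0.29 to 0.96). Without control replicate 3 the median was 0.46 (-0.46 to 0.90), and 7 pairs were below 0. These values are descriptive, since all genes share the same arrays, RNA and scaling. The genes whose course over the 9 arrays was most like the mean of the 10, among 6750 genes above background with an SD of at least 0.2, were Pgrmc2 (r = 0.99), Lrpap1 (0.98), Asxl2 (0.98), Ppm1f (0.97) and Ywhae (0.97). Each of these was lowest on control replicate 3, and Pgrmc2 read 6.48 there and 7.64 to 8.61 elsewhere. Without that array their r lay between 0.84 and 0.97.

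Some fast genes also followed the Y-linked level. Pvalb, Tnni2 and Tnnt3 had their 3 highest values on the 3 arrays with high Uty and Kdm5d, that is 3 of 10 genes against 1.72% of probe sets, and 0 of 10 had their lowest there, against 1.85%. The part of the Y-linked difference in these values was not tested. Tnni2 was at 18.37 to 18.39 on these and at 18.06 to 18.34 on the other 6. For Tnnt3 the margin was small, 17.72 against 17.71. When the level of these Y-linked genes entered the fit, the MCU knockout changes were 0.0085 for Pvalb, 0.031 for Tnni2 and 0.20 for Tnnt3 (adjusted p of 0.994, 0.979 and 0.850 in limma). These 3 were picked for their values on those arrays, so a smaller change was built into the choice. Mylpf went from 0.47 to 0.43, Casq1 from 0.31 to 0.29, Actn3 from 0.15 to 0.13 and Tnnc2 from 0.044 to -0.028. Myh1 went from 0.16 to 0.21, Atp2a1 from 0.21 to 0.23 and Myh4 from -0.075 to -0.14.

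Among the slow and IIa fibre genes the same 3 arrays were the lowest for 4 of 14, Casq2, Myh2, Myoz2 and Myl3, named after their values were seen. Also lowest there, and named likewise, were the macrophage marker Mrc1 (9.21 to 10.11 on these arrays, 11.14 to 11.91 on the others) and Fbp2, a further fast fibre gene of glucose metabolism (10.10 to 10.49, against 10.52 to 11.66). Myh2, the IIa myosin and the neighbour of Myh1, was at 16.63, 16.50 and 16.01 in control, 15.47, 13.44 and 13.96 in the MCU knockout and 14.27, 16.90 and 16.64 in the MCUb knockout. Its spread within a knockout exceeded that of any fast gene, with an SD of 1.06 and 1.45. The change of -2.09 in the MCU knockout did not pass (SE 0.65, adjusted p = 0.349). Casq2, the slow calsequestrin, had a change of -2.32 (adjusted p = 0.204) where its fast counterpart Casq1 had 0.31, and Myl2, a slow light chain, had -2.0 (adjusted p = 0.361). Of that list's 14 genes, 9 were above and 5 below their control level in the MCU knockout (median 0.095, mean -0.39). Among the 9 above, Myh7b (0.098) and Pln (0.092), which flank the median, were above background on no array. Tnni1 (0.63), also among the 9, was above background on only 2 arrays. In the MCUb knockout 4 of the 14 were above and 10 below (median -0.18). In limma 0 of the list passed the threshold in either knockout. At an unadjusted p under 0.05 in limma, 3 of the 14 were lower in the MCU knockout (Casq2, Myh2 and Myl2) and 2 higher. The 2 higher were Tnnt1 (0.60, adjusted p = 0.480) and Atp2a2 (0.59, adjusted p = 0.436), so the list did not move in 1 direction. Of all probe sets 10.1% were at such a p. In the MCUb knockout 0 of the list were, against 8.11% of all probe sets. The smallest p in the MCUb knockout belonged to Tnnt1 (0.48), Myl2 (-1.03) and Myh7b (-0.20, not above background on any array). Between the knockouts Casq2 (-1.69), Atp2a2 (0.67) and Myh2 (-1.64) came first, also not past the threshold.

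**Figure D4:**
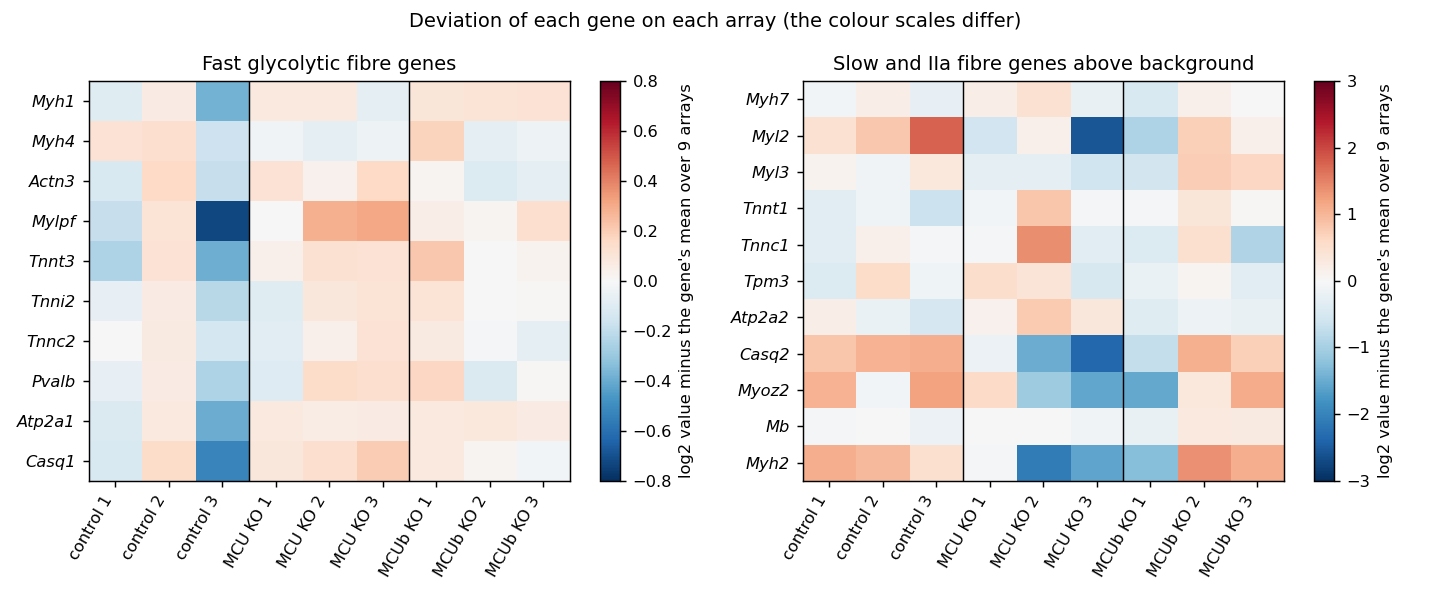
Log2 value minus the gene's own mean over the 9 arrays, in colour, for the 10 fast fibre genes and for the 11 slow and IIa fibre genes above background on every array; the colour scales differ. Blue marks control replicate 3 in the fast genes, while the deepest blue of Casq2, Myh2 and Myoz2 lies on MCU knockout replicates 2 and 3 and MCUb knockout replicate 1.

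Further genes of fast fibres, 22 in all, covered other sarcomere proteins, the triad where the surface signal releases calcium, and glycolysis. In limma 0 passed in any comparison. In the MCU knockout 15 of the 22 were above their control level and 7 below it. The median was 0.15, or 0.059 without control replicate 3, and 0 had an unadjusted p under 0.05, against 10.1% of all probe sets. In the MCUb knockout 17 lay above and 5 below (median 0.071, or 0.0032 without control replicate 3). At an unadjusted p under 0.05, 3 of the 22 were higher, where 8.11% of all probe sets were at such a p. The 3 were Srl (0.50, adjusted p = 0.534), Ldha (0.72, adjusted p = 0.594) and Gpd1 (0.44, adjusted p = 0.605). Srl, sarcalumenin of the reticulum lumen, was at 13.90, 13.97 and 13.80 in control, 14.30, 14.26 and 14.15 in the MCU knockout and 14.48, 14.29 and 14.40 in the MCUb knockout. Neither knockout overlapped with control for Srl, where 13.4% (MCU knockout) and 12.8% (MCUb knockout) of all probe sets did not. Its change in the MCU knockout was 0.34 (adjusted p = 0.508). Ldha, which makes lactate from pyruvate, was lowest on control replicate 3 (13.57, against 14.39 to 15.15 elsewhere). In the MCU knockout Ldha (0.57) and Myh13 (0.41) had the next smallest p after Srl, and without control replicate 3 they were at 0.18 and 0.088. Ldha in the MCUb knockout was then at 0.33. Between the knockouts 9 lay above and 13 below, with Gpd1 (-0.26), Ryr1 (-0.22) and Srl (-0.15) of smallest p.

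Regulators of fibre type included the fast-promoting factors Six4, Eya1 and Tbx15 and the slow-promoting Nfatc1 and Ppargc1a, and 18 were measured. In limma 0 passed in either knockout. In the MCU knockout 9 lay above control and 9 below (median -0.020), and the smallest p belonged to Nfatc1 (-0.57, adjusted p = 0.422), Mef2d (-0.48) and Vgll2 (-0.56). Nfatc1 and Mef2d were lower at an unadjusted p under 0.05, 2 of 18 where 10.1% of all probe sets were at such a p. For the MCUb knockout the split was 8 above and 10 below, and Vgll2 (-0.80, adjusted p = 0.535), Prox1 (0.65) and Tbx15 (0.39) came first. Of these Vgll2 had an unadjusted p under 0.05, where 8.11% of all probe sets did, and Prox1 was above background on only 2 arrays. Between the knockouts 6 lay above and 12 below, led by Maf (-0.49), Mef2d (-0.36) and Nfatc1 (-0.34), with 0 past the threshold and 0 at an unadjusted p under 0.05 (5.7% of all probe sets).

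Of 5 embryonic and neonatal genes 0 passed in limma in any comparison and 0 had an unadjusted p under 0.05, with Myl4 (0.47), Myh8 (0.24) and Myh3 (0.20) of smallest p in the MCU knockout and Myh8 (0.27), Tnnt2 (-0.25) and Myl4 (0.25) in the MCUb knockout. Leaving out control replicate 3, Myl4 was at 0.22 and 0.00080, Myh8 at 0.069 and 0.10, and Tnnt2 in the MCUb knockout at -0.079. Myh3 was above background on no array and Tnnt2 on only 1. Of 8 denervation and regeneration genes 0 passed, with Chrna1 (0.31), Myog (-0.24) and Chrnd (-0.31) first in the MCU knockout and Sln (-0.55), Chrnd (-0.52) and Myog (-0.26) in the MCUb knockout. Chrnd was not above background on any array. Without control replicate 3 these were 0.10, -0.23 and -0.15 in the MCU knockout and -0.645, -0.35 and -0.25 in the MCUb knockout. Between the knockouts 1 of the 8, Sln, was higher at an unadjusted p under 0.05 (0.82, adjusted p = 0.619 in limma), where 5.7% of all probe sets were at such a p. Among the 8 structural genes of all fibres 0 passed, and Ckm (0.31), Ldb3 (-0.16) and Des (-0.15) had the smallest p in the MCU knockout and Tcap (0.20), Ldb3 (-0.19) and Cmya5 (-0.18) in the MCUb knockout. Markers of endothelium and pericytes, fibroblasts, macrophages, fat, satellite cells, Schwann cells and tendon had 0 past the threshold against control in limma. In the MCU knockout 2 of 7 macrophage markers, Adgre1 and Csf1r, and 1 of 6 fibroblast markers were higher at an unadjusted p under 0.05. Lower at such a p were 1 of 9 markers of endothelium and pericytes, the pericyte marker Rgs5, and 1 of 5 tendon markers. Of all probe sets 10.1% were at such a p. Adgre1 was above background on only 2 arrays, and its change of 0.75 was 0.49 without control replicate 3. Of the 7 macrophage markers 6 lay above control and 1, Mrc1, below (-1.25, adjusted p = 0.496 in limma). Lower in the MCUb knockout were 1 of 9 markers of endothelium and pericytes, Kdr, and 1 of 6 adipocyte markers, where 8.11% of all probe sets were at such a p.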

How the data were processed

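Total RNA of frozen tibialis anterior was labelled for Clariom S mouse arrays, 3 per genotype, per the labels' protocols. The authors deposited 1 value for each probe set on each array, on a logarithmic scale read here as log2. The submitters' processing notes name Affymetrix Expression Console as the tool. Its version, the summarisation, the normalization and the base of the logarithm are not given in the sources used here. Of the 28846 values on an array, those of 6640 control features were set aside, so that 22206 probe sets were tested. A platform table named 19572 of them, all matched to current symbols by gene identifier (RefSeq, GRCm38.p6). Where a gene had several probe sets, the one with the highest mean was read. Above background means above the 95th percentile of the array's own 23 background sets.

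All probe sets were fitted in 1 limma 3.58.1 model (R 4.3.3, lmFit and eBayes) of 3 group means over 9 arrays. The fit left 6 residual degrees of freedom, to which the prior added 5.06. P-values were two-sided and adjusted by Benjamini-Hochberg over all 22206 probe sets, with a threshold of 0.05. The number of arrays limits the precision, and the median SE of a log2 change was 0.23. Intervals are the fit's 95% confidence intervals, unadjusted. The fit was tested on simulated data. Alternatives were other scalings, a filter on dim probe sets, array weights, the replicate number or Y-linked level in the fit, fewer groups, and leaving out each array. All 10 genes are named, with Mcu, the 3 genes of smallest p of each fibre list and the 5 genes of most like course. Lists of other cell types are given as counts, and some of their genes are named after their values were seen. The genes and lists were chosen with earlier results of these data known.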

Additional observations from a re-analysis of the deposited data

How the results depend on the processing

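Over 20 alternatives and 3 comparisons the 10 fast fibre genes gave 600 log2 changes, of which 554 kept their direction, 45 turned, 1 (Atp2a1 between the knockouts after quantile normalization) was 0, and 0 passed the threshold in limma. The value of 0 follows from that scaling, which gave Atp2a1 the same value on every knockout array. The smallest adjusted p was 0.190, for Mylpf in the MCU knockout without control replicate 2. The turned values were small, and the cause was not tested. Against control in the MCU knockout, Tnnc2 was -0.028 with the Y-linked level in the fit, and on the arrays with a low Y-linked level alone (3 control, 1 MCU knockout and 2 MCUb knockout), where the lone MCU knockout array is assumed to vary like the other groups, Tnnc2 was -0.065, Tnni2 -0.025 and Pvalb -0.021. In the MCUb knockout, Myh4 was 0.013 and Actn3 0.016 after centring on array medians, and Tnnc2 was -0.013 after centring on all-fibre genes, -0.0165 with the Y-linked level and -0.019 on low-Y arrays. Between the knockouts, quantile normalization gave Tnnt3 -0.026, Tnni2 0.0255, Tnnc2 -0.0105 and Pvalb -0.0093, median centring gave Tnnt3 -0.011, and array weights gave Tnni2 0.0081. The Y-linked level gave Tnnt3 -0.022, Tnnc2 -0.011, Pvalb -0.027 and Atp2a1 0.0054, and low-Y arrays gave Myh4 0.031, Mylpf -0.073, Tnnc2 -0.046, Pvalb -0.048 and Atp2a1 0.0044. Leaving out 1 array at a time, Tnnc2 ran from -0.015 to 0.099 in the MCU knockout. In the MCUb knockout Myh4 ran from -0.10 to 0.045, Actn3 from -0.0725 to 0.098 and Tnnc2 from -0.040 to 0.065. Between the knockouts Myh4 ran from -0.12 to 0.013, Tnnt3 from -0.027 to 0.079, Tnni2 from -0.0425 to 0.0615, Tnnc2 from -0.021 to 0.080 and Pvalb from -0.029 to 0.12.

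The probe sets called over the whole array, 31, 5 and 35 in the MCU knockout, in the MCUb knockout and between them, became 16 in the first with the Y-linked level in the fit, 0, 0 and 3 on low-Y arrays (with 1 MCU knockout array, so this says nothing of stability), 1 in the second with only the 2 groups compared, and 61 in the third with array weights. Leaving out 1 array they ran from 20 (MCU knockout replicate 3) to 98 (control replicate 2), from 0 (control replicate 1 and MCUb knockout replicates 1 and 3, with 2 without MCUb knockout replicate 2 and 3 without MCU knockout replicate 2) to 20 (control replicate 2), and from 13 (MCU knockout replicate 3, with 19 and 23 without MCUb knockout replicates 3 and 2) to 43 (control replicate 3). The deviations of same-numbered arrays from their group means had r from -0.12 to 0.088, and those of other pairs across groups from -0.12 to 0.093. These values cannot tell whether the numbers pair the arrays. With the replicate block 24, 5 and 28 probe sets were called and Mylpf in the MCU knockout stayed at 0.47 (adjusted p = 0.55). With 3 arrays a group, the intervals of the fast genes against control reach from 1.37-fold lower to 1.94-fold higher. All 10 lay above background on every array, and an upper limit of the signal was not tested.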
